A study of Mus musculus with 6 samples.

Results

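The cells described here were the G1 cells of cluster 0, a cluster of immature neutrophils in single-cell RNA sequencing of CD11b+ marrow cells from the femur and the mandible of the mouse. They were taken from the deposited cell table as the cells with cluster number 0 at clustering resolution 0.1 and a cell cycle call of G1. The rule found 18083 cells, 25.9% of the 69776 cells kept by the study and 93.9% of the 19261 cells of cluster 0. The other cells of cluster 0, 442 called S and 736 called G2M, are called cycling cells here. The cluster number and the phase call were derived from the expression of these same cells, so levels of this population against other clusters are described without a test.

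There were 3 femur libraries, replicate 1 from female and replicates 2 and 3 from male mice, and 3 mandible libraries, all from male mice. All mice were C57Bl/6 (C57Bl/6J in the methods), 2 months old, and the labels name no treatment or transgene. Marrow was flushed from the long bones (femurs and tibiae in the labels, femurs alone in the methods) or from the mandible after the molars were pulled and their sockets flushed, and CD11b+ cells, which carry the integrin alpha M chain of myeloid cells, were held back on magnetic beads. How many mice went into a library was not stated, so the p-values measure the spread between libraries. Sex was shared by all mandible libraries, so a femur and mandible contrast includes the 1 female femur library. Each read carried a unique molecular identifier (UMI) and counts are numbers of UMIs. A level is given in CPM, the UMIs of a gene per 1000000 UMIs, after summing the cells of a library.

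Neutrophils mature in the marrow in steps that are read from their granules. Promyelocytes fill primary granules with myeloperoxidase and serine proteases, myelocytes and metamyelocytes make secondary granules with lactoferrin and cathelicidin, and band cells add gelatinase before the mature cell leaves the marrow. Division stops around the myelocyte to metamyelocyte step, and the C/EBP epsilon transcription factor (Cebpe) is needed for the secondary granule genes. The promoters of 3 genes of that set are shown because they are among the 10 most abundant genes of this population and because the levels of Ltf and Camp differ in opposite directions from those in its cycling neighbours. They are RefSeq windows of the GRCm38.p6 build (mm10), from 250 bases before to 50 bases after the start, with matches to TTNNGNAA on either strand, a loose spelling of the C/EBP core chosen by hand, in capitals. The windows lie at chr9:111019042-111019341 on the plus strand (Ltf), chr9:109849407-109849706 on the minus strand (Camp) and chr9:110419558-110419857 on the plus strand (Ngp).
Ltf: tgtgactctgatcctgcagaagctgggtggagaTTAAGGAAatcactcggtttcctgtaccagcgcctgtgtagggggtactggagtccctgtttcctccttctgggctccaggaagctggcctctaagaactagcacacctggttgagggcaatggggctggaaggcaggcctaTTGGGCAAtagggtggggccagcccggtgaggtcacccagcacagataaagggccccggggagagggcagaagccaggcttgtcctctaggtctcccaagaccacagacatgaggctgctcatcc
Camp: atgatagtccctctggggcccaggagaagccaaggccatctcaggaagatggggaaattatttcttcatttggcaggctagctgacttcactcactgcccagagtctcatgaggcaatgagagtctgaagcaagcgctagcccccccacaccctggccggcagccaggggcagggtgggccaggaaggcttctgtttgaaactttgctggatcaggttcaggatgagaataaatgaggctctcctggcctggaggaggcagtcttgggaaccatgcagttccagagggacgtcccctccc
Ngp: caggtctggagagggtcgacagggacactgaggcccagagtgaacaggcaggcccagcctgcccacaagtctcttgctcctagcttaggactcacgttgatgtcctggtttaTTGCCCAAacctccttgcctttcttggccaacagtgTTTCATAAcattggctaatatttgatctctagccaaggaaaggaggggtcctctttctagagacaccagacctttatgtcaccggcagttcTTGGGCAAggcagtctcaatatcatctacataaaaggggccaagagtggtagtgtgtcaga
The Ltf window held 2 matches and the Ngp window 3, and the Camp window held 0. Of all 32851 promoter windows of this length 40.7% held at least 1 match, against 8 of 13 windows of secondary granule genes (61.5%). These letters describe the sequence and were not linked to binding of any factor.

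The femur libraries gave 2853, 2224 and 6504 cells of this population, and the mandible libraries 2305, 2275 and 1922. Their UMIs summed to between 22199018 and 84703325 per library, with a median of 8491 to 13600 UMIs per cell. The median cell of the femur libraries held 12224 ± 1215 UMIs and that of the mandible libraries 9763 ± 1453 (SD, n = 3 each; exact permutation test, two-sided p = 0.20, adjusted over 3 measures 0.30). Genes per cell (2537 ± 213 against 2218 ± 246, p = 0.20) and the mitochondrial share (0.591% ± 0.165 against 0.569% ± 0.0843, p = 0.90) also overlapped between the sites by the same exact permutation test, in which 3 against 3 libraries cannot give a p below 0.10. Xist was counted in femur replicate 1 as its label says, and 36 barcodes occurred in more than 1 library. Mandible replicate 3 stood apart on the first principal component (score 40.2 against -22.6 to 15.2 in the others).

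The transcriptome was dominated by a few antimicrobial products. The 10 most abundant genes took 44.4% ± 2.82 of the UMIs (SD, n = 6 libraries, range 41.3% to 48.5%). S100a9 (16.6% ± 1.33) and S100a8 (14.7% ± 1.60), the subunits of calprotectin, came first, followed by Ngp, neutrophilic granule protein (3.53% ± 0.164), Camp, the cathelicidin precursor (3.00% ± 0.241), and Lcn2, the siderophore binder lipocalin 2 (1.37% ± 0.0881). The deposited reference labels called 99.9% of the cells neutrophils with the ImmGen reference, and 85.4% granulocytes and 14.4% monocytes with the mouse RNA-seq reference. The 5 monocyte markers used here summed to 879 to 985 CPM in the 6 libraries. Nearly all of that was Ly6c2, at 915 ± 47.4 CPM against 1041 ± 109 in the more mature neutrophils of cluster 3, while Cx3cr1 (3.52 ± 0.742), Ccr2, the receptor of CCL2 (2.79 ± 1.21), and F13a1 (2.49 ± 0.942) were low and Csf1r, the M-CSF receptor, was at 7.46 to 14.4 CPM.

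The markers that define the population are given as a description, since its cells were clustered on them. The level of Ltf (lactoferrin; chr9:111019271-111042767) was 13452 ± 1540 CPM (SD, n = 6 libraries), above the cycling cells of the same cluster (9410 ± 820), cluster 4 (7965 ± 552) and cluster 3 (2817 ± 1016) in 6 of 6 libraries. Cluster 4 is an Fcnb- and Elane-rich granulocyte cluster and is mostly cycling, and cluster 3 is the Retnlg-rich cluster of more mature neutrophils. Camp (chr9:109847379-109849617) had the opposite order around this stage, at 30030 ± 2409 CPM against 37858 ± 2401 in the cycling cells and 43246 ± 2551 in cluster 4, and was lower than both in 6 of 6 libraries. Ngp (chr9:110419747-110423012) was close to both, at 35268 ± 1637 CPM against 32912 ± 2028 and 32564 ± 1236. Secondary granule genes thus differed from each other in where along these clusters they were highest.

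Fmnl2, a formin that assembles actin filaments, was at 551 ± 107 CPM, against 307 ± 64.7 in the cycling cells, 207 ± 30.1 in cluster 4 and 43.7 ± 16.5 in cluster 3. Syne1, which encodes the nuclear envelope protein nesprin-1, was at 2070 ± 307 CPM against 1198 ± 186, 1174 ± 135 and 1293 ± 272. Both were above all 3 neighbours in 6 of 6 libraries. They are long genes, of 276 kb and 531 kb, and genes spanning over 100 kb took 10.8% of the UMIs here, 7.86% in cluster 4 and 12.5% in cluster 3. The part of gene length in these levels was not tested.

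Summed over the lists, secondary granule genes (15 genes) took 11.4% ± 0.367 of the UMIs, as they did in the cycling cells (11.4% ± 0.641) and in cluster 4 (11.5% ± 0.347), against 3.76% ± 0.616 in cluster 3. The library values of the first 3 overlapped. Tertiary granule and gelatinase genes (11 genes) took 0.648% ± 0.106, above the cycling cells (0.345% ± 0.0538) and cluster 4 (0.310% ± 0.00875) and below cluster 3 (1.10% ± 0.138). Mmp8, neutrophil collagenase, was 8.32 times as high as in cluster 4 and 0.495 times as high as in cluster 3, and Mmp9, gelatinase B, 5.70 and 0.536 times. Fcnb, ficolin B, is in the same list and had the reverse order. Its level was 1450 ± 244 CPM in cluster 4, 225 ± 68.9 in these cells and 5.99 ± 3.28 in cluster 3.

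Primary granule genes (10 genes) took 0.141% ± 0.0136 of the UMIs, against 0.154% ± 0.0336 in the cycling cells, 0.385% ± 0.105 in cluster 4 and 0.243% ± 0.0466 in cluster 3, and their members did not share one order. Srgn, the granule proteoglycan serglycin, was at 816 ± 112 CPM against a mean of 524 in cluster 4 and higher in 6 of 6 libraries. In cluster 3 Srgn was at 2182 ± 494 CPM and made up most of the list's share there. Serpinb1a, an inhibitor of neutrophil serine proteases, was at 560 ± 47.7 CPM against 732 ± 35.1 in cluster 4. The proteases and myeloperoxidase were low here and in cluster 3, where Elane was at 4.83 ± 3.08 CPM and Mpo at 2.29 ± 1.49. Elane, neutrophil elastase, was at 4.29 ± 1.77 CPM against 1058 ± 433 in cluster 4, and Mpo, myeloperoxidase, at 2.60 ± 1.33 against 290 ± 130, while Elane in the B cells of cluster 6 was at 15.0 ± 26.1. Fcnb, of the tertiary granule list, fell between, at 225 ± 68.9 CPM against 589 ± 97.9 in the cycling cells, 1450 ± 244 in cluster 4 and 5.99 ± 3.28 in cluster 3. Cebpe followed Camp, at 335 ± 22.2 CPM against 460 ± 28.1, 539 ± 28.0 and 98.2 ± 15.4. Ly6g, the surface antigen of committed neutrophils, was at 792 ± 46.8 CPM against 400 ± 51.2, 257 ± 39.3 and 581 ± 57.4. Mature neutrophil genes (23 genes) took 1.05% ± 0.125 of the UMIs, against 0.382% ± 0.0783 in cluster 4 and 3.78% ± 0.403 in cluster 3. Genes of the G2M phase list, which made the phase call, took 0.262% here and 1.03% in the cycling cells.

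**Figure D1:**
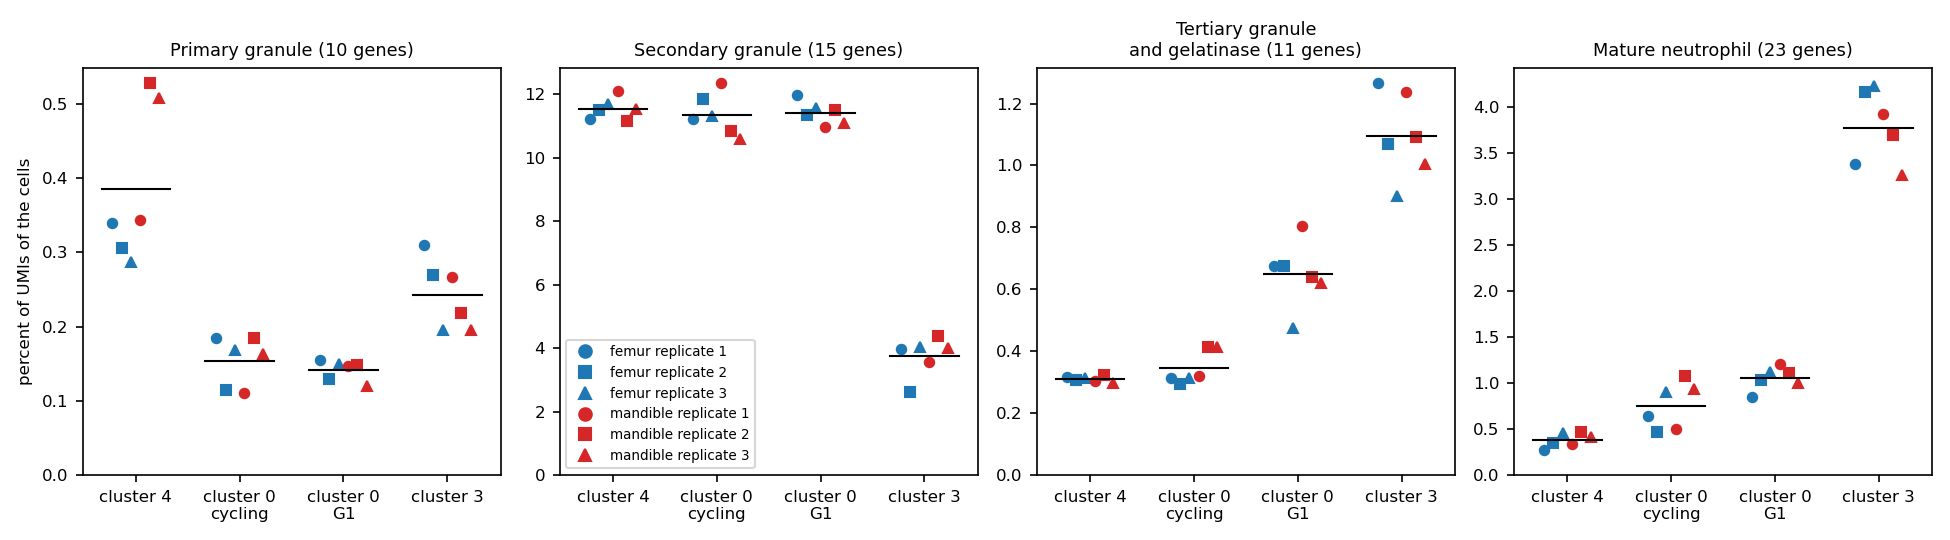
Percent of the UMIs of each library taken by primary granule, secondary granule, tertiary granule and mature neutrophil genes (1 panel each) in cluster 4, the cycling and the G1 cells of cluster 0, and cluster 3; points are libraries and lines are means over 6. Secondary granule genes stay near 11.4% up to the G1 cells and are at 3.76% in cluster 3. Tertiary granule genes as a sum go from 0.310% to 0.648% and 1.10%.

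The population was not uniform. The finer deposited clustering, at resolution 0.3, placed 18020 of its cells in finer clusters 2 (7235 cells), 4 (6867 cells) and 7 (3918 cells), and their granule genes differed in steps. Finer cluster 2 had the highest share of UMIs in secondary granule genes, 13.7% ± 0.127 (SD, n = 6 libraries), against 10.3% ± 0.585 in finer cluster 4 and 9.70% ± 0.534 in finer cluster 7. Tertiary granule genes had the reverse order between the first and second of these, at 0.357% ± 0.0541 in finer cluster 2, 1.02% ± 0.169 in finer cluster 4 and 0.618% ± 0.0865 in finer cluster 7. For a single cell the secondary granule share was wide, with a 5th percentile of 5.26% to 6.98% and a 95th percentile of 15.8% to 16.2% per library.

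Several genes separated finer clusters 2 and 4, and the values are a description. Chil3, the chitinase-like protein Ym1, was at 6710 ± 806 CPM there against 2888 ± 376 in finer cluster 4, Fcnb at 397 ± 106 against 15.4 ± 8.17, and Orm1, an acute-phase glycoprotein, at 177 ± 24.9 against 19.9 ± 8.85. Finer cluster 4 had more Mmp8, at 5381 ± 1080 CPM against 702 ± 289, and more Retnlg, resistin-like gamma, at 7342 ± 1435 against 811 ± 200. Members of the secondary granule list did not all follow its share, with Ltf at 14107 ± 1265 CPM in finer cluster 2 and 15153 ± 1573 in finer cluster 4, and Ceacam10 at 78.2 ± 10.0 and 165 ± 14.4. Primary granule genes took 0.102% ± 0.0116 of the UMIs in finer cluster 2, 0.116% ± 0.0193 in finer cluster 4 and 0.220% ± 0.0261 in finer cluster 7. That order was carried by Srgn, at means of 275, 667 and 1677 CPM. Ctsc, cathepsin C, shared it at a low level (3.44, 7.83 and 8.25 CPM). Serpinb1a was highest in finer cluster 2, at 696 CPM against 473 and 481. Elane (4.17, 3.72 and 4.53 CPM) and Mpo (2.28, 2.80 and 2.74 CPM) were low throughout and did not follow that order. Mouse RNA-seq labels of monocytes were given to 25.2% of finer cluster 2, 9.03% of finer cluster 4 and 4.01% of finer cluster 7.

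Finer cluster 7 combined genes that were apart in the other two. Its Fcnb level was 215 ± 52.2 CPM, its Retnlg level 7343 ± 1696, and Il1b, interleukin-1 beta, was at 382 ± 184 against 14.8 ± 10.3 in finer cluster 2 and 17.1 ± 15.6 in finer cluster 4. Csf3r, the G-CSF receptor, was at 790 ± 199 CPM against 187 ± 30.0 and 330 ± 72.0, and Ccl6, a chemokine, at 513 ± 175 against 28.2 ± 16.6 and 62.5 ± 44.8. These cells were also the deepest, with library medians of 16306 to 19951 UMIs against 7364 to 14452 in the other two. No doublet caller was run, and the part of cell pairs in this cluster was not tested.

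**Figure D2:**
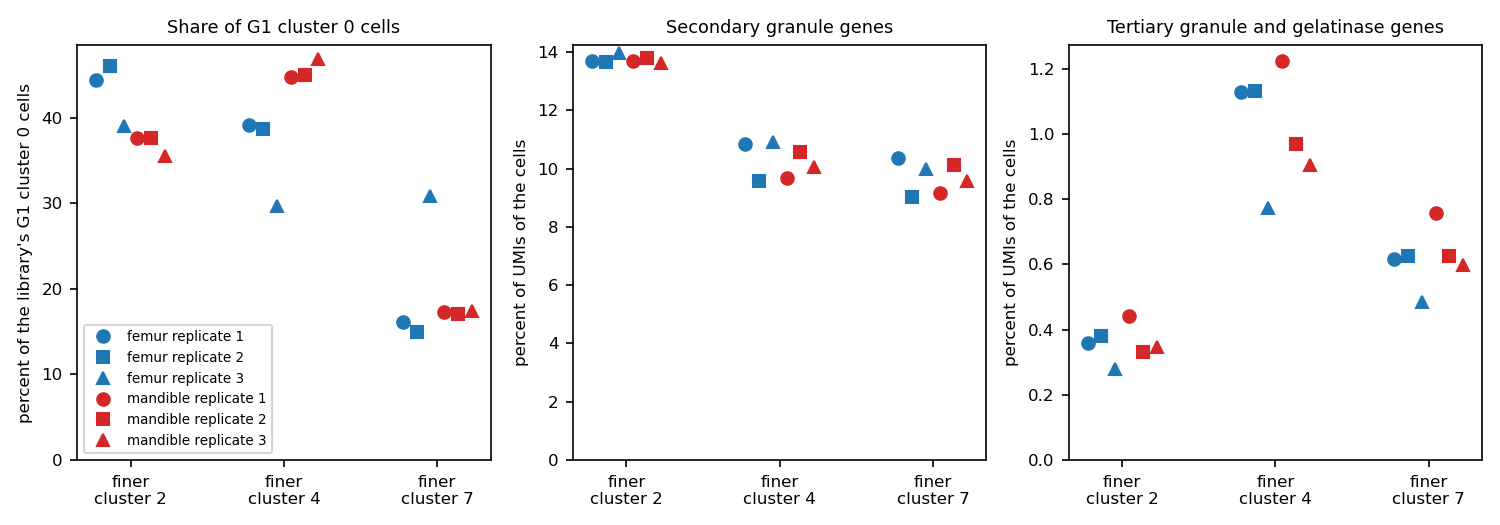
Share of the G1 cells of cluster 0 in each finer cluster, and percent of UMIs in secondary granule and in tertiary granule and gelatinase genes there, per library. Femur replicate 3 has 30.8% of its cells in finer cluster 7, against 15.0% to 17.4% in the other libraries.

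The mix of finer clusters differed somewhat by site, as a description of clusters built from these cells. Finer cluster 2 held 44.4%, 46.0% and 39.0% of the cells in the femur libraries and 37.6%, 37.7% and 35.5% in the mandible libraries, with no overlap. Finer cluster 4 held 39.2%, 38.7% and 29.7% against 44.8%, 45.0% and 46.8%, also with no overlap. Finer cluster 7 overlapped, at 16.1%, 15.0% and 30.8% against 17.3%, 17.0% and 17.4%, and the high value was that of femur replicate 3.

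As a share of all kept cells, the population was similarly frequent at both sites. It made up 27.8%, 19.2% and 28.5% of the femur libraries and 26.8%, 26.0% and 24.8% of the mandible libraries. The means were 25.2% ± 5.22 and 25.9% ± 1.03 (SD, n = 3 each), a difference of 0.685 percentage points (exact permutation test, two-sided p = 1.0), and the difference changed sign without femur replicate 2 (-2.32). Within the library numbers that the sites share in their library names, the mandible was 7.65 points higher for number 6 and 2.54 points lower for number 7 (-2.54).

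The G1 share of cluster 0 was 87.8%, 95.9% and 93.6% in the femur and 97.8%, 94.9% and 96.7% in the mandible, with means of 92.4% ± 4.16 and 96.5% ± 1.44 (SD, n = 3 each; exact permutation test, two-sided p = 0.20). The low value was that of femur replicate 1, whose cycling cells had a median of 1790 UMIs against 11480 to 14259 in the other libraries. Among cells with at least 5000 UMIs the shares were 95.1% ± 1.16 and 96.7% ± 1.37. Of the G1 cells, 1298 (7.18%) lay within 0.05 of the score limit of the phase call, so the border between G1 and cycling cells is a range.

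Between the sites, the comparison of summed counts asks whether immature neutrophils of the jaw marrow differ from those of the long bone. Of 12102 genes tested by the edgeR quasi-likelihood test, 1 passed an adjusted p of 0.05 (0.00826%), and this was Amelx. At an unadjusted p below 0.05 there were 827 genes (6.83%), of which 293 were higher (2.42%) and 534 lower (4.41%) in the mandible. Without overlap between the sites there were 295 genes higher (2.44%) and 985 lower (8.14%).

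Amelx (chrX:169176114-169187200, minus strand, overlapping Arhgap6 on the opposite strand) encodes amelogenin, the main protein of the enamel matrix, which ameloblasts secrete in the growing tooth. It gave 1 UMI in each femur library and 648, 228 and 321 UMIs in the mandible libraries, or 0.0260, 0.0367 and 0.0118 CPM against 21.8, 9.40 and 14.5. The groups lay far apart, with a log2 difference of 9.33 ± 0.47 (SE; edgeR adjusted p = 0.000171). Pooled over libraries, 3 against 1197 UMIs gave a ratio of 788, with a 95% exact counting interval of 269 to 3825 that covers counting error alone. Arhgap6 itself was at 5.43 ± 1.10 CPM in the femur and 6.57 ± 1.97 in the mandible (SD, n = 3 each).

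The Amelx UMIs were spread thinly. They were in 191 of 2305 cells of mandible replicate 1 (8.29%, 95% exact interval 7.19 to 9.49), 100 of 2275 cells of replicate 2 (4.40%, 3.59 to 5.32) and 192 of 1922 cells of replicate 3 (9.99%, 8.68 to 11.4), with at most 35 UMIs in 1 cell. They were also found in clusters 3, 4 and 6 of the same mandible libraries. Amelx was at 23.2, 10.95 and 13.5 CPM in cluster 3 and lower than here in cluster 4, at 6.59, 7.35 and 9.17 CPM. In cluster 6, the B cells, it was at 33.2, 1.95 and 55.6 CPM. The part of free RNA in these counts was not tested.

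The other enamel genes had the same direction at lower counts. Ambn, ameloblastin, gave 0 UMIs in every femur library and 114, 36 and 42 in the mandible libraries (edgeR adjusted p = 0.0756). The limit of 3 counts that a count of 0 allows was 0.0199 CPM over the pooled femur libraries. Enam gave 0 in the femur and 12, 3 and 9 UMIs, Amtn 0 and 6, 4 and 0, and Odam 0 and 0, 5 and 4. The 5 enamel genes summed to 0.0118 to 0.0367 CPM in the femur and to 26.2, 11.4 and 16.9 CPM in the mandible.

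Summed transcripts of bone cells and red cells were likewise higher in the mandible libraries, and none of their genes passed the adjusted test. The 5 bone and stroma genes summed to 4.85 to 5.39 CPM in the femur and to 11.6, 7.50 and 16.0 CPM in the mandible. Among them Bglap, osteocalcin, differed by 3.35 ± 0.52 and Col1a1, a collagen I chain, by 0.87 ± 0.18 (log2, SE; edgeR adjusted p = 0.274 and 0.424). The Bglap values rested on 2, 2 and 12 UMIs in the femur and 22, 19 and 38 UMIs in the mandible. A single cell held 10 of the 12 in femur replicate 3, and a single cell 20 of the 38 in mandible replicate 3. Ibsp, bone sialoprotein, overlapped, at 0.807, 1.03 and 0.697 CPM in the femur and 0.504, 0.165 and 1.58 CPM in the mandible. Basophil markers (2 genes) stayed at 0.319 CPM or below in the femur and in mandible replicate 1, and were at 11.5 and 35.2 CPM in mandible replicates 2 and 3. For each gene most UMIs lay in 1 cell, which held 79 of 113 Mcpt8 UMIs and 116 of 165 Prss34 UMIs in replicate 2. In replicate 3 the highest cell held 357 of 374 Mcpt8 and 387 of 408 Prss34 UMIs. The part of free RNA or of attached cells in any of these values was not tested.

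The haemoglobin genes showed how few cells can carry such a sum. Hbb-bs, an adult beta globin whose reads may be shared with the near-identical Hbb-bt, was at 7.34, 10.6 and 4.36 CPM in the femur and at 99.3, 23.0 and 110 CPM in the mandible, a log2 difference of 3.44 ± 0.52 (SE; edgeR adjusted p = 0.254). Of 6527 haemoglobin UMIs in mandible replicate 1, 5811 lay in 1 cell, and of 4903 in mandible replicate 3, 3495 lay in 1 cell. Without the 42 cells that held over 10 haemoglobin UMIs, a choice made after seeing the data, the summed level was 14.6, 23.6 and 9.44 CPM in the femur and 18.0, 31.3 and 20.4 CPM in the mandible, which overlap. The Hbb-bs difference was then 0.86, while Amelx stayed at 21.8, 9.43 and 14.6 CPM.

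**Figure D3:**
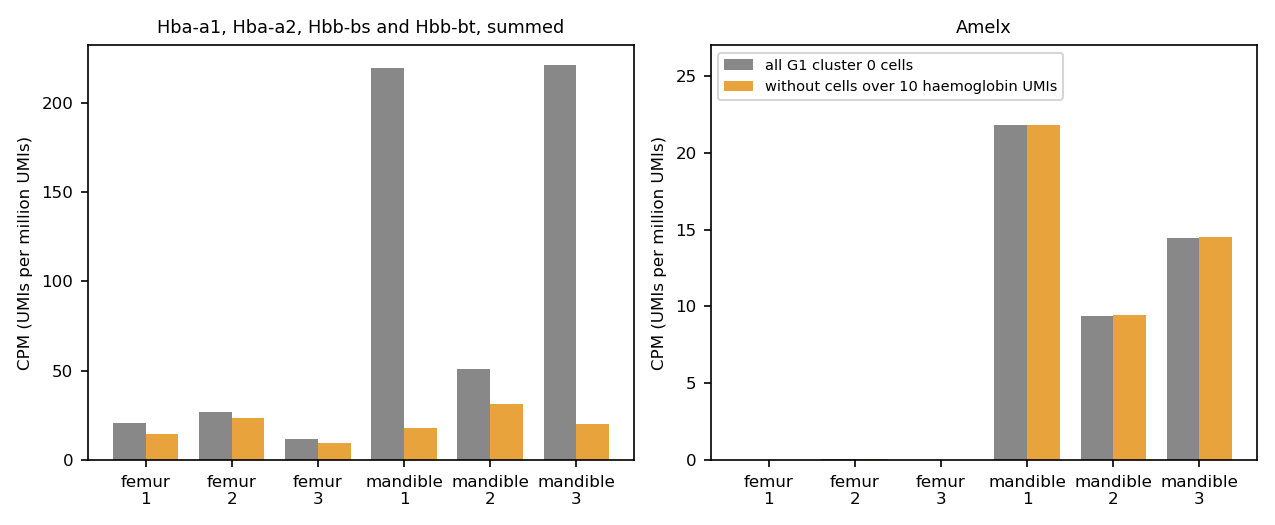
Summed level of 4 haemoglobin genes (left) and level of Amelx (right), in CPM, per library, in all G1 cells of cluster 0 and without the cells holding over 10 haemoglobin UMIs. The haemoglobin level of mandible replicate 1 goes from 219 to 18.0 CPM, and the Amelx levels stay in place.

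The levels of the genes that define the population lay within the spread between the sites. Cells of both sites were clustered on these genes, so the tests cannot decide whether the sites differ in them. Ltf was at 16267, 13622 and 12072 CPM in the femur and 13643, 12972 and 12135 CPM in the mandible, a log2 difference of -0.06 ± 0.15. Camp differed by 0.04 ± 0.20, Ngp by -0.01 ± 0.17, Fmnl2 by 0.01 ± 0.16 and Syne1 by 0.00 ± 0.14 (SE; edgeR adjusted p at least 0.991 for all 5). For Fmnl2 the spread itself was uneven, with 695, 604 and 382 CPM in the femur and 552, 486 and 584 CPM in the mandible.

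Of the genes that the study named for this cluster, Junb had the largest difference. Junb (chr8:84974484-84978718), an AP-1 transcription factor of the immediate early response, was at 311, 369 and 378 CPM in the femur and 703, 550 and 417 CPM in the mandible. The mandible libraries were all higher, by 0.69 ± 0.21 (log2, SE; edgeR adjusted p = 0.504), and replicate 3 was the nearest to the femur. Inside the finer clusters the log2 ratios of the site means were 0.78 and 0.84 in finer clusters 2 and 4, without overlap, and 0.36 in finer cluster 7, with overlap.

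Mmp8 was at 2696, 2820 and 1681 CPM in the femur and 3699, 2734 and 2454 CPM in the mandible (log2 difference 0.37 ± 0.20, edgeR adjusted p = 0.866), and Mmp9 differed by 0.32 ± 0.14 (adjusted p = 0.693). Both sets of values overlapped, and the lowest was that of femur replicate 3. Without mandible replicate 1 the Mmp8 difference was 0.20. In finer cluster 4, where Mmp8 was highest, its log2 ratio of site means was 0.02, against 0.62 in finer cluster 2 and 0.38 in finer cluster 7, with overlap in all 3.

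Among genes of at least 20 CPM with no overlap and an unadjusted p below 0.05, the other high values in the mandible were small. Fbrsl1 differed by 0.73 ± 0.18, Krt83 by 0.49 ± 0.14, Tex14 by 0.47 ± 0.15 and Zc3h12a, the RNase Regnase-1 that degrades inflammatory mRNAs, by 0.47 ± 0.12 (log2, SE). None passed the edgeR adjustment (adjusted p from 0.465 to 0.509 for these and Borcs6, which differed by 0.41 ± 0.10).

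Cpa6, an extracellular carboxypeptidase, had the lowest p of the genes that were lower in the mandible in this selection. It was at 309, 266 and 221 CPM in the femur and at 160, 123 and 96.6 CPM in the mandible, a log2 difference of -1.01 ± 0.18 (SE; edgeR adjusted p = 0.396). The sites were apart in each finer cluster as well, with log2 ratios of -0.92, -1.12 and -1.01 in finer clusters 2, 4 and 7. The lower level of Cpa6 was thus found in all 3 finer clusters, although it did not pass the adjusted test over all genes.

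Il1b was at 157, 137 and 198 CPM in the femur and 95.8, 79.6 and 58.2 CPM in the mandible (log2 difference -1.05 ± 0.24, SE; edgeR adjusted p = 0.465). Its level was concentrated in finer cluster 7, at 663, 493 and 434 CPM in the femur and 301, 229 and 169 CPM in the mandible, without overlap. After every cell was thinned to 2000 UMIs, 12.0% ± 3.96 of femur cells and 5.51% ± 1.11 of mandible cells had an Il1b UMI (SD, n = 3 each; exact permutation test, p = 0.10, adjusted over 12 genes 0.24). The B cells of cluster 6, which should lack it, had 10.8% ± 3.29 and 4.25% ± 1.87, at median depths of 4284 UMIs against 11169 before thinning. The shares of both cell types overlapped at each site, and the part of free RNA in the Il1b values was not tested.

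The other genes lower in the mandible were Filip1l (-1.17 ± 0.37), Fgl2, a fibrinogen-like protein of myeloid cells (-1.08 ± 0.23), Gm20404 (-1.07 ± 0.31), Gm48678 (-0.95 ± 0.28), 1500015L24Rik (-0.94 ± 0.30) and Oprm1 (-0.89 ± 0.32). All values are log2 differences with SE, and none passed the edgeR adjustment (adjusted p from 0.424 to 0.615). In all but Fgl2 the lowest library was mandible replicate 3, for example 22.2 CPM of Oprm1 against 57.1 and 53.8 in the other mandible libraries. Without that library the differences were -0.56 for Oprm1, -0.62 for 1500015L24Rik, -0.66 for Gm48678, -0.73 for Gm20404 and -0.82 for Filip1l. With Il1b, 7 of these 8 genes overlap a gene on the opposite strand, such as Oprm1, the mu opioid receptor gene, with Ipcef1 and 1500015L24Rik with Anxa1. Whether counting used the strand was not stated, so how the reads of such pairs were divided is uncertain. Ipcef1 differed by 0.02 ± 0.11 and Anxa1, annexin A1, by -0.11 ± 0.15. Among the other partners, Tmcc1 (with Gm20404) differed by 0.16 ± 0.13, Itsn2 (with Gm48678) by -0.08 ± 0.10 and Ccdc146 (with Fgl2) by -0.16 ± 0.39. Cmss1, which overlaps Filip1l, was lower, at a mean of 1192 CPM in the femur and 667 in the mandible (-0.76 ± 0.39, with overlap). Il1bos, which overlaps Il1b, was lower as well, at 2.15 and 0.663 CPM (-1.68 ± 0.44, without overlap).

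The same feature was common among all genes lower in the mandible. Of the 534 genes lower at an unadjusted p below 0.05, 64.6% overlapped a gene on the opposite strand, against 35.5% of the 293 higher genes and 39.3% of the 12102 tested. Genes that are not protein coding made up 40.5% of the annotated lower genes, against 14.7% of the higher and 12.1% of the tested ones. The lower genes had a median level of 2.94 CPM, against 8.78 CPM over the genes tested. Whether these features are separate was not tested. Summed over all genes that are not protein coding, without Malat1, the UMI share was 1.90%, 2.22% and 1.40% in the femur. In the mandible it was 1.98%, 1.41% and 1.38%, which overlap.

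**Figure D4:**
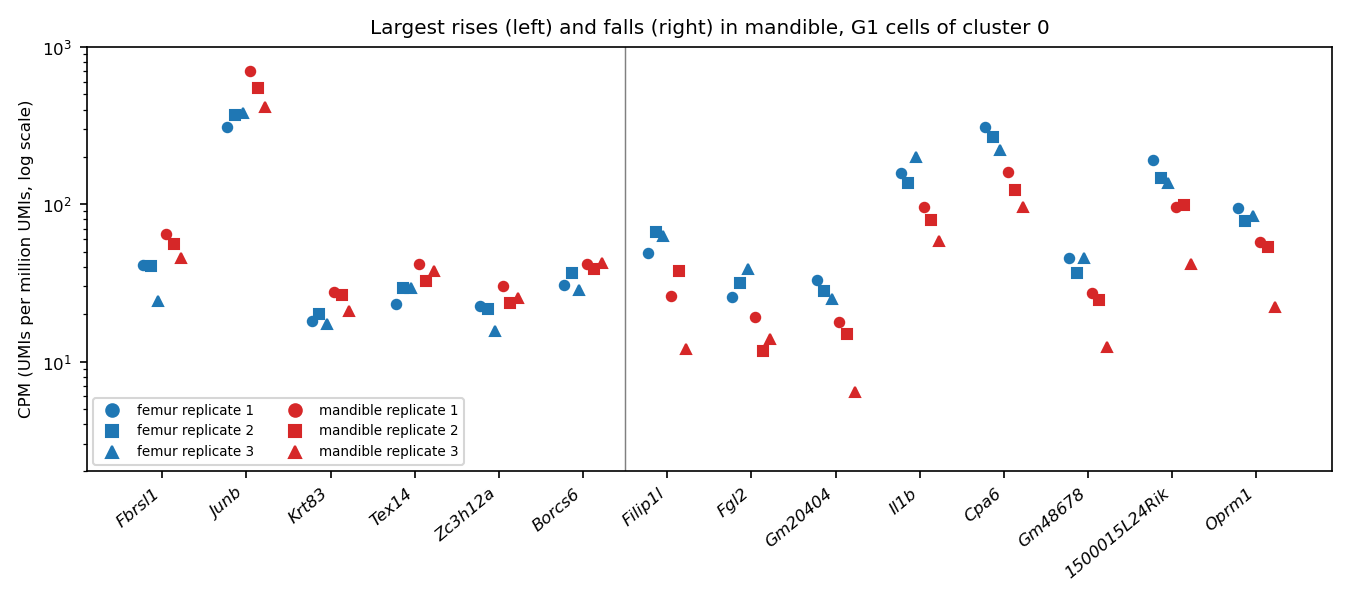
Level in CPM (log scale) of the genes with the largest differences at an unadjusted p below 0.05, without overlap and with at least 20 CPM, per library; genes higher in the mandible are on the left and lower ones on the right. Hbb-bs and 1 gene not reported here are left out. Mandible replicate 3 is the lowest point for Filip1l, Gm20404, Gm48678, 1500015L24Rik and Oprm1.

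Granule gene lists had no common direction between the sites. Of the 15 secondary granule genes 14 passed the filter on low counts; 7 were higher and 7 lower in the mandible, with a median log2 difference of 0.00 against -0.000079 over all genes, and 0 passed the edgeR adjusted test. At an unadjusted p below 0.05 there was 1, Ceacam10, at 102, 114 and 103 CPM in the femur and 141, 124 and 119 CPM in the mandible (0.31 ± 0.11), against 2.42% of all 12102 genes higher and 4.41% lower at that p. Of 11 tertiary granule genes, 7 were higher and 4 lower, with a median of 0.05 (0.01 without femur replicate 2 and 0.13 without femur replicate 3), and 2 in each direction had an unadjusted p below 0.05, read against the same shares of all genes. The lower ones were Fcnb, at 280, 244 and 323 CPM against 156, 194 and 155 (-0.71 ± 0.19), and Itgax, the integrin alpha X chain (-1.30 ± 0.28).

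Fcnb was lower in the mandible within finer cluster 2, where it is mostly found, without overlap (log2 ratio -0.65), and overlapped in finer clusters 4 (-0.78) and 7 (-0.48). Its thinned share of cells was 24.5% ± 3.56 against 15.9% ± 1.57 (SD, n = 3 each; exact permutation test, p = 0.10, the smallest possible). The B cells had 5.48% ± 4.16 and 1.56% ± 0.0331. The thinned shares of cells with a UMI were higher in the mandible for Junb (36.2% ± 3.20 against 49.9% ± 7.34), Mmp8 (66.7% ± 3.29 against 76.7% ± 2.28) and Mmp9 (80.3% ± 3.64 against 87.1% ± 2.37), without overlap and with the same exact p. In the B cells the Mmp8 share was 18.6% ± 4.58 and 17.8% ± 3.97, and the Junb share 39.6% ± 7.32 and 41.9% ± 7.52. Unthinned, the Mmp8 values were 80.2% ± 1.90 and 85.3% ± 2.96 and the Mmp9 values 94.4% ± 2.58 and 96.4% ± 1.31, and both overlapped. Thinned to 1000 UMIs the Mmp9 values overlapped as well (65.6% ± 5.48 and 73.7% ± 3.79, exact permutation test, p = 0.20). Of the 18083 cells, 438 with fewer than 2000 UMIs were left out, 395 of the femur and 43 of the mandible.

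Primary granule genes had no common direction (9 tested, 5 higher and 4 lower, median 0.02, and -0.10 to 0.25 when single libraries were left out). Ctsg, cathepsin G, was at 0.390, 0.623 and 0.496 CPM in the femur and 0.504, 1.11 and 3.06 CPM in the mandible, where 1 cell held 34 of the 68 Ctsg UMIs of replicate 3. Ms4a3, a marker of granulocyte-monocyte progenitors, differed by -0.66 ± 0.29 (-0.43 without femur replicate 3). Of 23 mature neutrophil genes 14 were higher, with a median of 0.04 that was -0.07 without femur replicate 1 and 0.18 without femur replicate 3. NADPH oxidase genes, which make the respiratory burst, had 6 of 7 higher with a median of 0.05 (0.01 without mandible replicate 2 and 0.11 without mandible replicate 1). None of the 7 had an unadjusted p below 0.05, at which 6.83% of all genes stood.

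Interferon response genes were mostly lower in the mandible, and femur replicate 3 decided the size. Of 36 tested, 31 were lower and 5 higher in the mandible, 10 were lower without overlap (8.14% of all genes were), 4 were lower at an unadjusted p below 0.05 (4.41% of all genes were) and 0 passed the edgeR adjusted test. The median was -0.25, and it was -0.04 without femur replicate 3, whose summed level was 2585 CPM against 1990 and 1990 in the other femur libraries and 1977, 2118 and 1838 in the mandible. Slfn5 was at 11.5, 18.6 and 27.1 CPM against 11.4, 10.4 and 8.74 (-0.90 ± 0.33), and Ifitm1, an antiviral membrane protein of the mature list, at 41.8, 61.9 and 182 CPM against 35.6, 50.2 and 33.7 (-1.28 ± 0.54). The high femur value of both was that of replicate 3, and without it the differences were -0.44 and -0.25.

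Immediate early genes were mostly higher, with 17 of 21 above 0 and a median of 0.22. The median was 0.08 without mandible replicate 1 and 0.32 without mandible replicate 3. Egr1 was at 185, 119 and 75.4 CPM in the femur and 424, 195 and 160 CPM in the mandible (1.10 ± 0.37), with overlap, and its difference was 0.58 without mandible replicate 1. Atf3 was at 9.19, 9.31 and 11.8 CPM in the femur and 7.50, 2.80 and 2.61 CPM in the mandible (-1.20 ± 0.37, and -1.86 without mandible replicate 1). In the NF-kB and inflammatory list 19 of 26 were higher, with a median of 0.11 that was 0.01 without mandible replicate 1, including Nfkbiz (0.40 ± 0.16), while Ccl4, a chemokine, was lower (-0.92 ± 0.21).

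Genes of energy metabolism were mostly higher in the mandible by small amounts, and none passed the edgeR adjusted test. Of 75 nuclear oxidative phosphorylation genes, 58 were higher, with a median over the list of 0.07 and 0 at an unadjusted p below 0.05 (6.83% of all genes). That median was -0.04 without femur replicate 1 and 0.24 without femur replicate 3. Of 13 mitochondrially encoded genes 8 were higher with a median of 0.06, which was -0.08 without femur replicate 3 and 0.19 without femur replicate 1. Among them was mt-Cytb, at 500, 429 and 319 CPM in the femur and 571, 490 and 565 CPM in the mandible (0.44 ± 0.13). The difference of mt-Nd6, which overlaps mt-Nd5 on the opposite strand, was larger and in the other direction, at 10.4, 5.32 and 6.59 CPM in the femur and 5.28, 2.84 and 2.93 CPM in the mandible (-0.96 ± 0.29). Glycolysis genes had 13 of 18 higher with a median of 0.11 (0.04 without femur replicate 2 and 0.18 without mandible replicate 1), among them the lactate exporter Slc16a3 (0.30 ± 0.11, and 0.20 without mandible replicate 1). Of the genes for retention and egress 7 of 15 were higher with a median of -0.02, and Itga4, the alpha 4 integrin that binds VCAM-1, was at 49.9, 47.3 and 53.0 CPM in the femur and 37.5, 28.4 and 34.1 CPM in the mandible (-0.56 ± 0.13). That difference lay in finer cluster 7, with a log2 ratio of -1.02 without overlap, against -0.21 and -0.26 with overlap in finer clusters 2 and 4.

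Of the other lists, pattern recognition and Fc receptors had 15 of 21 higher (median 0.11) with Clec4n, Dectin-2, at 3.54, 3.56 and 8.64 CPM in the femur and 2.19, 1.44 and 2.21 CPM in the mandible. Its difference was -1.47 ± 0.42, and -0.76 without femur replicate 3. Proteasome genes had 22 of 36 higher (0.04), granulopoiesis transcription factors 14 of 18 (0.07), S100 proteins 7 of 8 (0.10), apoptosis genes 10 of 17 (0.04), heat shock genes 6 of 12 (-0.05) and ribosomal proteins 16 of 82 (-0.10). In the lists of the phase call, 13 of 39 S phase and 23 of 53 G2M genes were higher (medians -0.12 and -0.03). Markers of monocytes (3 of 5 higher), macrophages (3 of 5), B cells (4 of 4), T and NK cells (0 of 1) and platelets (2 of 2) had summed levels that overlapped between the sites. In none of the lists other than the enamel genes did a gene pass the edgeR adjusted test.

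Whether a site difference was particular to these cells was tested against 3 neighbours with limma on per-library differences. Against the cycling cells of the same cluster 0 of 7525 genes passed an adjusted p of 0.05, with 129 at an unadjusted p below 0.05 (1.71%). Against G1 cells of cluster 4, of which a library had 6 to 28, 0 of 3652 genes passed, with 154 unadjusted (4.22%). Against cluster 3, 0 of 9265 passed, with 770 unadjusted (8.31%).

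Junb was higher in the mandible in these cells and in each neighbour. Its log2 site differences in the neighbours were 0.72 (cycling cells), 0.99 (cluster 4 in G1) and 0.43 (cluster 3). The Junb site effect here minus that in the cycling cells was -0.02 ± 0.35 (log2, SE, limma adjusted p = 0.999). Against cluster 4 in G1 this difference was -0.22 ± 0.26 and against cluster 3 it was 0.27 ± 0.13 (limma adjusted p = 0.870 and 0.622). Against cluster 3 the lowest p were those of Gm26917 (-0.86 ± 0.13) and Prtn3, proteinase 3 (-1.10 ± 0.19), both with a limma adjusted p of 0.443. Prtn3 was low in both sets, at 5.85 ± 2.28 CPM here and 5.27 ± 3.03 in cluster 3, against 819 ± 344 in cluster 4. In the B cells it was at 19.1 ± 31.5 CPM. Its site differences were -0.27 ± 0.45 here and 0.81 ± 0.49 in cluster 3. Retnlg differed between the sites by 0.40 ± 0.26 in these cells and by -0.08 ± 0.26 in cluster 3. The difference was 0.50 ± 0.11, with a limma adjusted p of 0.443 as well. Against the cycling cells the lowest p was that of Amelx. Its level in the mandible libraries was 30.6, 16.4 and 40.6 CPM in the cycling cells, above the 21.8, 9.40 and 14.5 CPM here, and 0 in the cycling cells of every femur library. Its edgeR log2 difference between the sites was 9.06 ± 0.78 there and 9.33 ± 0.47 here. The haemoglobin genes Hbb-bt (3.25 ± 0.69), Hba-a1 (4.04 ± 0.88) and Hbb-bs (4.27 ± 0.93) followed. All 4 had a limma adjusted p of 0.999, and the sums still held the 42 haemoglobin-rich cells.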

How the data were processed

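Single-cell RNA sequencing (10x Genomics 3' chemistry) had been run on CD11b+ marrow cells in 6 libraries, 3 of the femur and 3 of the mandible. The deposited matrices hold raw UMI counts per gene and cell, made by the authors with CellRanger (7.0.1 in the labels, 7.1.0 in the matrix headers) on mm10; whether strand was used in counting is not given in the sources used here. The authors kept cells by the number of genes and the mitochondrial percent, normalised with SCTransform in Seurat (R 4.1.0), integrated the libraries, clustered with the Louvain method and labelled cells with SingleR. Their deposited cell table gives the mitochondrial percent, the S and G2M score, the phase call and the cluster numbers. A deposited marker table holds the authors' own cluster comparisons and was not used.

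UMIs of the G1 cells of cluster 0 were summed per library from the raw counts, and 99.7% to 100% of the kept cells' sums matched the cell table. Sums were tested between sites over all genes with the edgeR (4.0.16) quasi-likelihood test, TMM scaling and filterByExpr, in R 4.3.3, with Benjamini-Hochberg adjustment. Differences between site effects were tested with limma (3.58.1) on per-library log2 CPM differences (prior count 2). Single values were tested with exact permutation tests over the 20 assignments of the 6 libraries. For shares of cells with a UMI, each cell was thinned to 2000 UMIs. No doublet caller was run. Counting intervals and floors cover counting error only. The edgeR and limma tests were also run on simulated counts, with an outcome that is not reported here, and the permutation tests were not. The limma simulation drew both sets of sums at the depth of these cells, without the smaller cell numbers of the neighbours.

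The cells, gene lists and tests were chosen with earlier results of these data known. Genes were named by rule: those past the threshold, the 8 largest rises and 8 largest falls with an unadjusted p below 0.05, no overlap and at least 20 CPM, the 5 marker genes, 3 genes the study names, the 3 members of each list with the lowest p, and the 5 with the lowest p for each difference between site effects. Some genes that met the rule are not reported here. Members of lists that add no value beyond the list's counts are not all printed, and genes described across clusters were picked from the lists by their known role. The alternatives tried were DESeq2 (1.42.0), no filter, leaving out each library, replicate blocks, all phases, reference-labelled neutrophils, removal of the 5% of cells with most genes and equal cell numbers; cells of at least 5000 UMIs, all phases of cluster 4 and removal of cells over 10 haemoglobin UMIs were chosen after seeing the data. Positions of genes are those of the GENCODE annotation of GRCm38 (mm10), and the promoter windows are those of RefSeq, whose gene starts can differ.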

Additional observations from a re-analysis of the deposited data

How the results depend on the processing

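The number of genes differing between the sites depended on the method. It was 1 in the edgeR fit, 54 with DESeq2 (12 higher and 42 lower in the mandible), 140 without the filter on low counts, 2 with all phases of cluster 0 and 1 to 5 when single libraries were left out. With a replicate block on the library number, in the 4 libraries that share one, it was 366 (204 higher, 162 lower). Block and site left that fit almost no libraries over to measure spread, so its count leans on spread shared across genes. With a block on the replicate number of the titles it was 1. Deviations of same-numbered libraries correlated at 0.425 and 0.362 for the library number and at -0.000190, -0.366 and 0.110 for the title number; what the library number marks is not stated. Differences between site effects numbered 3 against cycling cells and 102 against cluster 3 with the library number block, which has the same limit. They numbered 1 against cluster 4 without the filter and 0 to 4 against cluster 3 with single libraries left out. Otherwise the number was 0.

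Of 848 gene values under alternatives 746 kept their direction and their side of an adjusted p of 0.05, 76 passed it anew, 0 lost it (1 of the 53 genes, Amelx, passed to begin with) and 26 turned, all in 5 genes near 0: Syne1 (-0.000611 with DESeq2, -0.0335 unfiltered, -0.000904 with equal cell numbers, -0.00565 in cells of at least 5000 UMIs), Camp (-0.000845 unfiltered, -0.0630 blocked by library number), Fmnl2 (-0.0216 unfiltered), Ltf (0.0824 blocked) and Ngp (0.0313 blocked, 0.000483 in all phases, 0.0220 without cells with most genes, 0.000774 with equal cell numbers). With single libraries left out these ranged from -0.0770 to 0.132 (Syne1), -0.0631 to 0.203 (Camp), -0.151 to 0.151 (Fmnl2), -0.119 to 0.0112 (Ltf) and -0.0827 to 0.0658 (Ngp). The share of kept cells ranged from -2.32 to 2.37 points and the mitochondrial percent from -0.114 to 0.0437. Shares of cells with a UMI turned when thinned to 1000 UMIs for Elane (-0.0623), Camp (-0.00961) and Cxcr2 (-0.153) and unthinned for Ltf (-0.0325), Camp (-0.0785), Ngp (-0.0582) and Retnlg (-0.705), with leave-one-out ranges of -0.00429 to 0.0186 for Camp and -0.00184 to 0.0420 for Ngp. The cause of these changes was not tested. Of 176 list medians 6 moved beyond the spread. The tests against cluster 4 in G1 rested on few cells, 6 to 28 per library, and the part of cell number in their counts was not tested.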
